A study of Mus musculus with 480 samples.

Results

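The cells described are the bronchioalveolar stem cells (BASCs) of the mouse line BASCs-Tracer. They were taken as all cells that the labels assign both to that line and to the sub-type BASCs, which gave 85 cells on plate A1 and 53 on plate A2, out of 480 cells of all lines. The genotype of the line joins Sftpc-DreER and Scgba1a1-CreER with the reporter R26-RSR-LSL-tdtomato, so a cell carries tdTomato only after a Dre recombinase under Sftpc control and a Cre recombinase under Scgb1a1 control have both acted. The line had 160 cells in all, and its other cells were labelled club cell (15), AT2 (6) or ciliated cell (1). For comparison, the study also held Scgb1a1-TD (Scgba1a1-CreER with R26-tdtomato), which needs the Cre alone, and Sftpc-TD (Sftpc-DreER with R26-RSR-tdtomato), which needs the Dre alone. Every line carries a recombinase fused to a ligand-binding receptor domain and a tdTomato reporter at the same locus. The labels name no age, strain, inducing agent or animal. All BASCs of the line therefore count as 1 sample, values carry no p, and the spread given is between cells and not between animals.

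BASCs lie where the terminal bronchiole opens into the alveolar duct. They are defined by carrying both Sftpc, the surfactant protein of alveolar type 2 (AT2) cells, and Scgb1a1, the secretoglobin of airway club cells, and after lung injury they can give rise to airway and alveolar cells. AT2 cells make surfactant, a film of lipid and protein that lowers surface tension, and they also carry MHC class II, the surface molecules that present peptides to helper T cells, with Cd74 as its invariant chain. Club cells secrete Scgb1a1 and metabolise foreign compounds with enzymes such as Cyp2f2.

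The promoters shown first belong to the genes on which the account of co-variation and spread turns: H2-Aa and H2-Eb1, chains of MHC class II that varied with Cd74, and the neighbouring lysozyme genes Lyz1 and Lyz2, which stood far apart in spread. Each is the 250 bases before the gene's start in RefSeq (GRCm38.p6), on the gene's own strand. In H2-Aa (chr17:34287824-34288073, minus strand) and H2-Eb1 (chr17:34305617-34305866, plus strand), capitals mark CCAAT or its complement ATTGG, the core letters of the Y box of class II promoters. In Lyz1 (chr10:117292869-117293118, minus strand) and Lyz2 (chr10:117282273-117282522, minus strand), capitals mark the bases that differ when both are aligned end to end.
H2-Aa: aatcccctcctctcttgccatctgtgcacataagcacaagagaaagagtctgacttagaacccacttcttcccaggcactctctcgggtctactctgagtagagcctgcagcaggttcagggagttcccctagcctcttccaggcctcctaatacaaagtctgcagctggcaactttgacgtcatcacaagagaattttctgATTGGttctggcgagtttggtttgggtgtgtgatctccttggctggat
H2-Eb1: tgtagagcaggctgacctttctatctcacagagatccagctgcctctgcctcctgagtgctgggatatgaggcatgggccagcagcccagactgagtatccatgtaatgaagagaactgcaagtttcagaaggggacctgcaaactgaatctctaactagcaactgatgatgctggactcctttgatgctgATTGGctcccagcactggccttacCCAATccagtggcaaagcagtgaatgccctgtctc
Lyz1: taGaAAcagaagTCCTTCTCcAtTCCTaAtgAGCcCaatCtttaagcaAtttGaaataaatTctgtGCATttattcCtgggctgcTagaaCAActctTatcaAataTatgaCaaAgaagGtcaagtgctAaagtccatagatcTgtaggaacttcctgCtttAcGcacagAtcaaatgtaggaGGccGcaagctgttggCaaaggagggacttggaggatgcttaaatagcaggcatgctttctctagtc
Lyz2: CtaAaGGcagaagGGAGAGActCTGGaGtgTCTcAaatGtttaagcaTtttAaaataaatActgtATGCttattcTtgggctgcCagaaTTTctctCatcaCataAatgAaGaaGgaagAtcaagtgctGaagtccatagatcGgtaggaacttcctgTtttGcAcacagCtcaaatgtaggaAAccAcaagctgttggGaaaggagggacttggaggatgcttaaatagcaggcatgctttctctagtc
Searched on both strands, CCAAT occurred in 33.8% of 32817 mouse promoters of this length, so its presence in both class II promoters is given as a description. Whether the marked letters are bound was not tested. The Lyz1 and Lyz2 promoters were identical at 79.4% of aligned positions.

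The BASCs held 106587371 reads assigned to genes. Reads per cell ran from 21951 to 3233511, with a median of 775502 (791824 on plate A1 and 572311 on plate A2). A median of 4993 genes had a read, and 3138 after each cell was thinned to 100000 reads, which 84 cells of plate A1 and 49 of plate A2 allowed. Mitochondrial genes took a median of 3.03% of reads and at most 21.1% in any cell. Plate A1 held BASCs-Tracer cells only, whereas plate A2 also held cells of Scgb1a1-TD.

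The transcriptome was led by surfactant genes. The 10 genes with most reads held 38.22% of all reads (Clopper-Pearson 95% interval 38.21% to 38.23%; intervals on levels and read shares cover counting error of PCR reads only). Sftpc (ENSMUSG00000022097; minus strand of chromosome 14, 70520949 to 70524081, in GRCm38 like all gene positions here) had the highest level, 174513 CPM (read counts scaled to a common total of gene-assigned reads; interval 174433 to 174592). Single cells ran from 28753 to 352814 CPM of Sftpc with a median of 164979. Lyz2 (ENSMUSG00000069516, chromosome 10, 117277331 to 117282321, minus strand), the lysozyme of AT2 cells and macrophages, followed at 86640 CPM, and Sftpa1, a collectin that binds surfactant lipid and microbes, at 52041 CPM. Scgb1a1 (ENSMUSG00000024653, chromosome 19, 9083636 to 9087958, minus strand) followed at 13416 CPM (13394 to 13438). Per transcript length, which is the scale for setting genes against each other, the levels in TPM (CPM divided by exon length and rescaled) were 318881 for Sftpc, 124389 for Lyz2, 53253 for Scgb1a1 and 34380 for Sftpa1, so the short Scgb1a1 transcript ranked above Sftpa1.

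Further leading genes were of AT2 kind. Sftpb, which organises the surfactant film, stood at 11024 CPM, the phosphate transporter Slc34a2 at 9086 CPM, the chitinase-like protein gene Chil1 at 9011 CPM, the fatty acid desaturase Scd1 at 7551 CPM and the lung chemokine Cxcl15 at 6922 CPM. Cbr2, a carbonyl reductase known from club cells, was as abundant as these at 9465 CPM, with a read in every cell and a range of 863 to 99596 CPM. All 16 AT2 markers reached 50 CPM, with a median of 2251 CPM, against 2542 of all 53379 genes in the table. Of 14 genes of surfactant processing and lamellar bodies, the organelles that store surfactant, 13 reached 50 CPM. Among them were the lysosomal membrane protein Lamp3 (1668 CPM), the lipid transporter Abca3 (294.8 CPM), the aspartic protease Napsa (1810 CPM) and Lpcat1, which makes surfactant phosphatidylcholine (1391 CPM). Pgc, a protease of the same list, had reads in 24 cells and 13.3 CPM. Of 17 genes of fatty acid and phosphatidylcholine synthesis, 15 reached 50 CPM, with Fasn, the fatty acid synthase, at 851 CPM.

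Club cell markers were present only in part. Of 20 such genes, 10 reached 50 CPM, with a median of 50.5 CPM. After Scgb1a1 and Cbr2 came haptoglobin (Hp, 1739 CPM), Cyp2f2 (1273 CPM; ENSMUSG00000052974, chromosome 7, 27119909 to 27133660, plus strand), Por, the electron donor of cytochromes P450 (180.8 CPM), and Scgb3a2, another secretoglobin, with reads in every cell and a highest value of 5376 CPM. Other secretory club genes were low: Scgb3a1 stood at 5.29 CPM, the mucin Muc5b at 5.40 CPM and Reg3g at 3.73 CPM. Of 17 genes of xenobiotic metabolism, 11 reached 50 CPM, including the carboxylesterase Ces1d (569 CPM), Cyp2b10 (368.9 CPM) and the glutathione transferase Gstm1 (216.6 CPM).

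Markers of other cell types were checked over whole lists. Of 12 ciliated markers, Sec14l3 (224.2 CPM) and Tppp3 (53.9 CPM) reached 50 CPM, while Foxj1, the regulator that defines ciliated cells, had 0.178 CPM and reads in 9 cells. The summed ciliated list ran from 8.50 to 4435 CPM per cell with a median of 194.5. Of 12 markers of alveolar type 1 cells, Ager (1901 CPM), Aqp5 (294.4 CPM), Emp2 (250.7 CPM) and Clic5 (86.9 CPM) reached 50 CPM, whereas Hopx (2.24 CPM, 22 cells) and Pdpn (11.97 CPM, 20 cells) did not. None of the 6 basal, 6 neuroendocrine, 8 lymphocyte, 8 alveolar macrophage, 8 endothelial, 8 mesenchymal or 5 erythroid markers reached 50 CPM. Krt5, Calca, Siglecf, Pdgfrb, Cd3e and Trbc2 had 0 reads (0 cells, which allows a share of up to 2.17% of cells with a read). Of 8 pan-leukocyte genes, only the actin-bundling gene Lcp1 passed 50 CPM (median cell at 29.8 CPM and highest at 889 CPM), and Ptprc (CD45) had reads in 13 cells and 1653 CPM in the highest. Summed, the pan-leukocyte list was at 0 to 4953 CPM per cell, with 66 cells at 50 CPM or more, and 7 cells when Lcp1 was not counted.

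**Figure D1:**
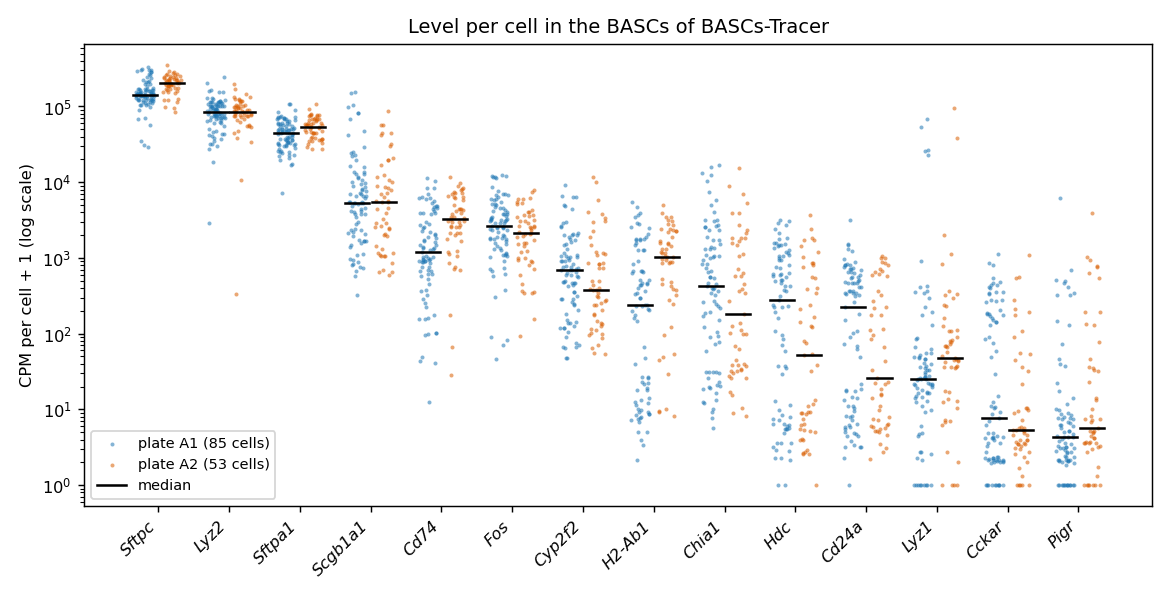
Level of 14 genes in each BASC (CPM + 1, log axis) by plate, with the median as a bar. Sftpc, Lyz2 and Sftpa1 form narrow bands, Scgb1a1 runs from 323.3 to 153509 CPM, and Hdc, Cd24a and Cckar run from 0 to 1000 CPM or more.

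The defining pair differed in how evenly cells carried it. Every BASC had 10000 CPM or more of Sftpc, but only 40 had 10000 CPM or more of Scgb1a1, and 15 had less than 1000 CPM. All 5 BASCs under 100000 reads were among these 40, at 10732 to 48107 CPM of Scgb1a1. Scgb1a1 ran from 323.3 to 153509 CPM, with a median of 5394 (5389 on plate A1 and 5455 on plate A2). With a coefficient of variation (CV, the standard deviation over the mean of cells) of 1.91, Scgb1a1 was far more uneven than Sftpc (CV 0.363), Sftpa1 (CV 0.386) or Lyz2 (CV 0.421). Ciliated cells of Scgb1a1-TD, a type that should lack both products, had a median of 901 CPM of Scgb1a1 and 669 CPM of Sftpc at a median depth of 990495 reads. The range of Scgb1a1 in those ciliated cells, 92.9 to 213332 CPM with its upper end set by few cells, covered all BASC values, whereas the lowest Sftpc value of a BASC was above the highest ciliated value of 6291 CPM. A read of Scgb1a1 was present in every BASC and in every such ciliated cell, so presence alone does not separate them.

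The other markers of the type also varied. Cd74 (ENSMUSG00000024610, chromosome 18, 60803848 to 60812652, plus strand) stood at 3277 CPM, with cells from 11.6 to 11639 CPM and a median of 2012. In 8 cells it was below 100 CPM, inside the range of 1.79 to 135.5 CPM in ciliated cells. Hdc (ENSMUSG00000027360, chromosome 2, 126593667 to 126619299, minus strand), histidine decarboxylase, which makes histamine, stood at 533 CPM (529 to 537.8), with cells from 0 to 3657 CPM. Hdc was below 10 CPM in 47 cells, between 10 and 100 CPM in 18, between 100 and 1000 CPM in 43 and at 1000 CPM or more in 30, so the fewest cells lay just above 10 CPM. At 100000 reads, 75.2% of BASCs had an Hdc read, beside 72.97% of BASCs of Scgb1a1-TD (median depth 1091825 reads), 66.7% of the 6 AT2 cells of the tracer line (793568 reads), 54.1% of AT2 cells of Sftpc-TD (1114309 reads), 29.8% of club cells of Scgb1a1-TD (1082694 reads) and all 24 ciliated cells of Scgb1a1-TD. Of the 11 BASCs of Sftpc-TD (1212915 reads), 63.64% had an Hdc read at 100000 reads. These shares are over cells of 1 sample each, and the differences were not tested. The median Hdc level was 168.8 CPM in BASCs of Scgb1a1-TD and 30.84 CPM in those of Sftpc-TD. The median of the AT2 cells of the tracer line was above that of its BASCs. The ciliated cells had a median of 628 CPM of Hdc, above the BASC median of 151.1 CPM. The Hdc median was 275.4 CPM on plate A1 and 51.7 CPM on plate A2, with highest cells at 3131 and 3657 CPM.

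Detection was next described at equal depth. At 100000 reads, 0.663% of the genes in the table had a read in 90% or more of the BASCs, and 1.645% without thinning. Sftpc, Lyz2 and Scgb1a1 had a read in every thinned cell, and Lyz1 in 75.94% of them. Signalling genes ranged widely. Of 14 Notch pathway genes 3 had a read in 50% or more of thinned cells, of 12 FGF pathway genes 4 and of 16 Wnt pathway genes 4. Among all 53379 genes in the table, 1794 did. The FGF receptor Fgfr2 had a read in 92.5% of thinned cells, the FGF target Etv5 in 95.5%, the Notch target Hes1 in 78.95%, the receptor Notch2 in 77.4%, whereas Notch1 had a read in 12.03%, Notch3 in 4.51% and Fgfr1 in 9.77%. Nkx2-1, the lung lineage transcription factor, had a read in 92.5%. Of 14 proliferation genes, 3 reached 50 CPM (Ccnd1 at 82.8 CPM, Pcna at 69.75 CPM and Ccnd2 at 55.9 CPM), and the replication gene Mcm2 stood at 10.1 CPM. These cyclins and Pcna also occur outside cycling cells. Of genes of the dividing cell, Mki67 stood at 0.0375 CPM and Top2a at 0.1595 CPM, and Ccnb1 and Ube2c had 0 reads.

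Spread was then compared with level, since few reads alone make a gene uneven. For each of 2413 genes with 50 CPM or more and a read in 25% of cells, the squared CV was set against the median of the genes nearest in mean level. Genes of the mitochondrial genome, ribosomal protein genes, Gm-number and Rik genes and identifiers without a symbol of their own were left out beforehand. The most abundant genes shared 1 trend value, a CV of 0.702. It was the same for Cyp2f2 at 1273 CPM and Scgb1a1 at 13416 CPM, so these were not compared with genes of closely like level. A gene was counted when its squared CV was 2-fold or more above that trend in both plates, and 34 genes met this, a background share of 1.41%. Genes near that limit are not read as more variable. Lyz1, Chia1, Pigr, Cldn4, Scgb1a1, Anxa1, Retnla and Cyp2f2 were 4-fold or more above the trend in both plates.

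Lyz1 (ENSMUSG00000069515, chromosome 10, 117287797 to 117292868, minus strand), the lysozyme gene beside Lyz2, stood farthest above the trend. It ran from 0 to 93993 CPM with a median of 34.3, and its CV of 4.70 was far above the trend of 0.702. A total of 31 cells were below 10 CPM, 75 between 10 and 100 CPM, and 9 cells at 1000 CPM or more, of which 7 passed 10000 CPM. These high cells were on both plates, 5 on A1 and 4 on A2, and the highest cell held 27.8% of the summed CPM. The 3 highest had 93993, 67852 and 53265 CPM of Lyz1 beside 44757, 42662 and 62477 CPM of Lyz2. The promoters printed above differ at 50 bases of Lyz1. Lyz2 was at 10000 CPM or more in all cells but 2, and all 7 cells past 10000 CPM of Lyz1 were among them. The coding copies are alike, and how the counting split reads between them was not tested.

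Chia1, an acidic chitinase, ran from 4.62 to 16749 CPM with a median of 375.1 and a CV of 2.06. It was not carried by few cells: 7 cells were below 10 CPM, 40 between 10 and 100, 44 between 100 and 1000 and 47 at 1000 CPM or more. Pigr, the receptor that moves immunoglobulin across epithelium, and the resistin-like gene Retnla were the opposite, with medians of 3.80 and 3.89 CPM and highest cells at 6226 and 8865 CPM. The highest cell held 32.95% of the summed CPM of Pigr and 46.2% of that of Retnla. Cldn4, a tight junction claudin, was at 10 to 100 CPM in 7 cells, at 100 to 1000 CPM in 4 and above that in 3, with a highest value of 1905 CPM, and lower in all others. Anxa1, a calcium-dependent phospholipid-binding protein, was led by plate A2, with its highest cells at 11316 CPM there and 4025 CPM on plate A1.

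A total of 84 genes were 2-fold or more below the trend in both plates, so less uneven than others of their level. They were led by Gpx4-ps2, Ndufa3, Cd63-ps, Rnaset2a, Usmg5, Atp5l, Chchd10, Romo1, Cox7c and Atpif1, many of them short transcripts of mitochondrial proteins at 59.3 to 116.7 CPM. Gpx4-ps2 and Cd63-ps are named as pseudogenes. How the counting split reads between them and Gpx4 and Cd63 was not tested, so their low spread is not read as their own. Ndufa3, a subunit of respiratory complex I, had a CV of 0.704 against a trend of 1.69 at its level of 81.99 CPM.

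**Figure D2:**
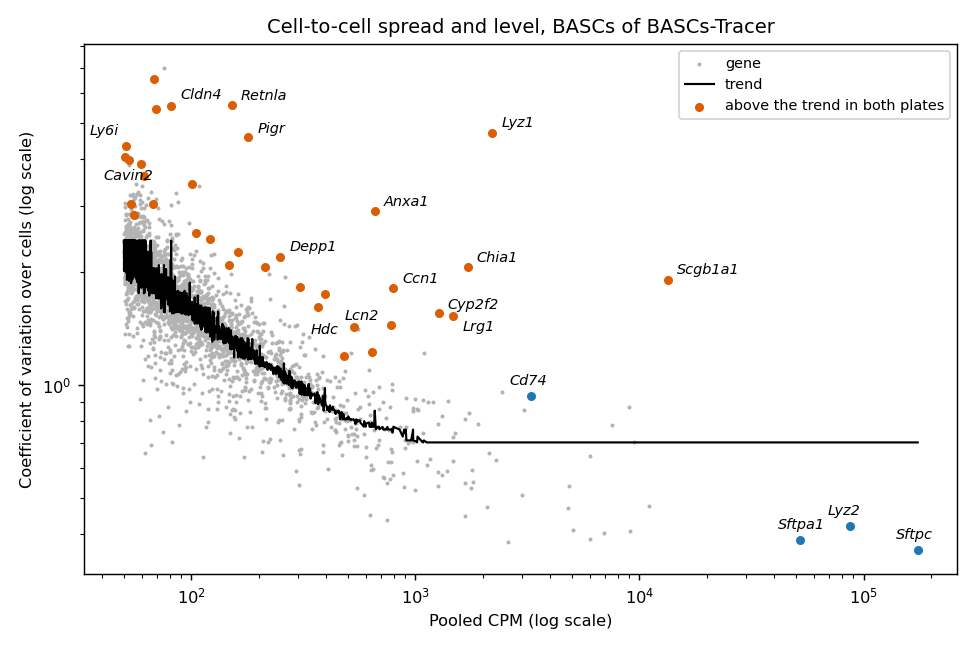
CV over the BASCs with 100000 reads or more against pooled CPM (both axes log) for 2413 genes, with the trend as a black line and the 34 genes above it in both plates in orange. Lyz1, Chia1 and Scgb1a1 stand farthest out at high level, while Sftpc, Lyz2 and Sftpa1 (blue) lie below the trend.

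Co-variation was described by Spearman's rho over the same 84 and 49 cells, for genes with 50 CPM or more and a read in 50% of cells, and in each plate apart. The gene classes left out for spread were left out here too, so counts and rankings of pairs do not cover them. Cells share a line, 2 plates and a scaling total, so rho is given without a p. Of 2828631 pairs of 2379 genes, 15 reached 0.5 in both plates, a share of 0.00053%, and the median rho of all pairs was 0.033. A pair of these 15, Gpx4 with Gpx4-ps2 (0.941), and another, Cd63 with Cd63-ps (0.931), join a gene to a gene named as its pseudogene, and how the counting split reads between such copies was not tested. Most of the remaining pairs fell into 2 sets of 4 genes.

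The club-like set held Scgb1a1, Cyp2f2, Cd24a and Cckar. Scgb1a1 with Cyp2f2 gave a rho of 0.739 (0.727 on plate A1 and 0.734 on plate A2). Scgb1a1 with Cd24a, a surface glycoprotein high in airway epithelium, gave 0.672 (0.585 and 0.792), and with Cckar, a cholecystokinin receptor in the club marker list, 0.535 (0.504 and 0.594). Hp followed at 0.496. Cyp2f2 ran from 46.01 to 11778 CPM with a median of 573, and Cd24a from 0 to 3171 CPM with a median of 91.7. Cckar was below 10 CPM in 85 cells, at 100 to 1000 CPM in 35 and above that in 2, with a highest value of 1140 CPM. In club cells of Scgb1a1-TD the medians were 32895 CPM for Cyp2f2, 367.3 CPM for Cd24a and 453.6 CPM for Cckar, so the highest BASCs passed the club median for Cd24a and Cckar but not for Cyp2f2.

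The class II set held Cd74, H2-Ab1, H2-Aa and H2-Eb1, the invariant chain and the alpha and beta chains. Cd74 with H2-Ab1 gave 0.870 (0.839 and 0.828), the highest rho of the pairs counted other than the pseudogene pairs. H2-Aa with H2-Ab1 gave 0.776 (0.735 and 0.768), Cd74 with H2-Aa 0.759 (0.716 and 0.725) and Cd74 with H2-Eb1 0.595 (0.580 and 0.507). H2-Ab1 ran from 1.14 to 5429 CPM with a median of 452.6, H2-Aa from 1.14 to 2969 CPM with a median of 572, and H2-Eb1 from 0 to 1632 CPM with a median of 128.9. All 49 cells with 1000 CPM or more of H2-Ab1 also had 1000 CPM or more of Cd74. Another 43 cells passed 1000 CPM for Cd74 only, and 46 for neither. Cd74 was the more abundant gene (3277 CPM pooled, beside 1092 CPM for H2-Ab1), so a shared cut favours this one-sided pattern. Among the 7 class II genes, 6 reached 50 CPM and their median pairwise rho was 0.412. Ciita, the regulator that switches class II genes on, had reads in 29 cells and 13.5 CPM. Of the class I list, the 3 most abundant genes, H2-D1, H2-K1 and B2m, stood at 1080, 1018 and 992 CPM with CVs of 0.745, 0.627 and 0.915, beside 0.936 for Cd74, 1.01 for H2-Aa and 1.21 for H2-Ab1. H2-T23, another class I gene, had a median of 2.39 CPM and a highest cell at 1555 CPM, and the median rho of the class I list was 0.234.

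These sets ran against each other. Scgb1a1 with Cd74 gave a rho of -0.544 (-0.544 on plate A1 and -0.594 on plate A2), Cyp2f2 with Cd74 -0.563 (-0.545 and -0.526) and Cyp2f2 with H2-Ab1 -0.576 (-0.519 and -0.501). Among the pairs counted, these were the only 3 at -0.5 or lower in both plates. The cell with most Scgb1a1, 153509 CPM on plate A1, had 6628 CPM of Cyp2f2, 360.8 CPM of Cd74 and 8.36 CPM of H2-Ab1. The cell with least, 323.3 CPM on plate A1, had 65.7 CPM of Cyp2f2, 8456 CPM of Cd74 and 4721 CPM of H2-Ab1. No cell had 10000 CPM or more of both Scgb1a1 and Cd74, though 40 cells passed that level of the former and only 3 of the latter. At 1000 CPM, 78 cells had both, 45 Scgb1a1 alone, 14 Cd74 alone and 1 neither. Some cells stood off the relation. A cell of plate A2 with 2886008 reads had 590 CPM of Scgb1a1 but 11778 CPM of Cyp2f2, the highest of all BASCs, with 123253 CPM of Sftpc and the lowest Lyz2 value of all.

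**Figure D3:**
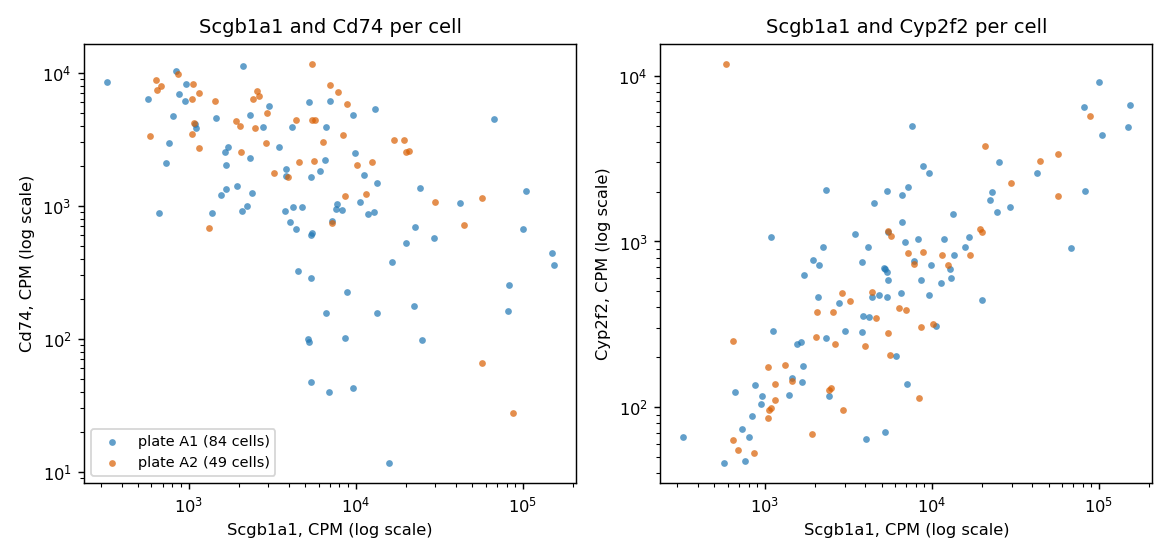
Scgb1a1 against Cd74 (left) and Cyp2f2 (right) in the BASCs with 100000 reads or more, in CPM on log axes, coloured by plate. Cd74 declines and Cyp2f2 climbs along Scgb1a1 in both plates, and the cell at 590 CPM of Scgb1a1 and 11778 CPM of Cyp2f2 stands apart at the upper left of the right panel.

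The opposition was present on plate A1, which held no other line, and rho with reads per cell was -0.22 for Scgb1a1 and 0.212 for Cd74. With rank residuals after reads and genes per cell, the rho of Scgb1a1 with Cd74 was -0.499, and with cells thinned to 100000 reads -0.557. Plates differed in the level of the class II genes, with a Cd74 median of 1213 CPM on plate A1 and 3236 CPM on plate A2, and of H2-Ab1 of 240 and 1037 CPM. No doublet call was made, and the part of mixed wells in these relations was not tested.

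The same pairs were looked at in the most similar groups, as values without a test of the difference. In 37 BASCs of Scgb1a1-TD with 100000 reads, Scgb1a1 with Cyp2f2 gave 0.693, with Cd24a 0.563 and with Cd74 -0.589. In AT2 cells of Sftpc-TD (60 on plate A4 and 88 on plate A5), Scgb1a1 with Cyp2f2 gave 0.148 and with Cd24a 0.176, but with Cd74 -0.441 (-0.443 and -0.354 by plate). In 94 club cells of Scgb1a1-TD, Scgb1a1 gave 0.0489 with Cyp2f2 and 0.106 with Cd74. Cd74 with H2-Ab1 was positive throughout, at 0.644, 0.617 and 0.413 in the same order of groups. The AT2 cells had a Scgb1a1 median of 240 CPM. For the 11 BASCs of Sftpc-TD only levels are given. Their medians were 2531 CPM for Scgb1a1, 20.34 CPM for Cyp2f2, 0 CPM for Cd24a and 1272 CPM for Cd74. Each was below the median of the tracer BASCs.

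**Figure D4:**
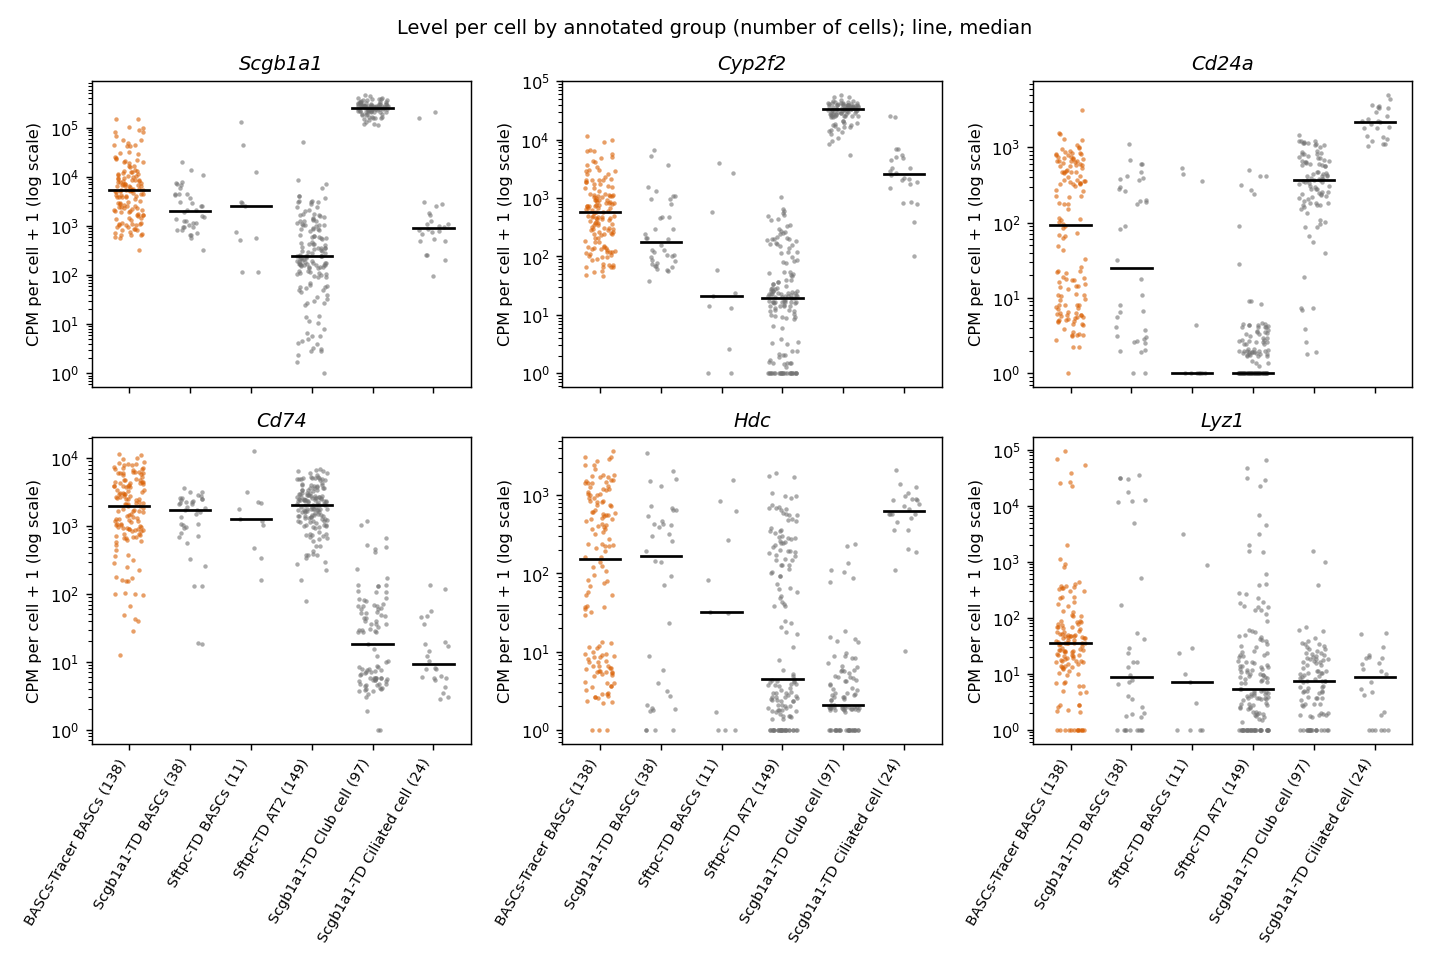
Scgb1a1, Cyp2f2, Cd24a, Cd74, Hdc and Lyz1 per cell (CPM + 1, log axes) in the BASCs of BASCs-Tracer (orange) and in 5 annotated groups of the other lines (grey), with the median as a bar and the number of cells in brackets. Scgb1a1 in the tracer BASCs (median 5394 CPM) lies between AT2 cells (240 CPM) and club cells (257566 CPM). The Cd74 median over both plates (2012 CPM) is near that of AT2 cells (2088 CPM), but it lies between a lower median on plate A1 and a higher one on plate A2.

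Within the defining markers, Sftpc and Scgb1a1 were weakly opposed, with a rho of -0.287 (-0.35 and -0.128), and the value moved to -0.121 when the total left out mitochondrial genes and the 10 leading genes. Sftpc had a rho of -0.752 with the number of genes detected per cell, and Ubb -0.545. Its partners, Ubb (0.639) and Malat1 (0.477) on the positive side and Actb (-0.573) on the negative, moved toward 0 when reads and genes per cell were removed, to 0.368, 0.202 and -0.417. Lyz2 went with Scgb1a1 (0.451; 0.367 and 0.582) but gave -0.00971 with Sftpc. Hdc had no partner at 0.5 among the genes for which rho was taken. Among its nearest were Tgoln1, a protein of the Golgi network (0.391), Car8 (0.333) and the secreted glycoprotein gene Lrg1 (0.321). The value for Lrg1 was 0.197 without the 66 cells at 50 CPM or more of pan-leukocyte genes, and 0.312 without the 7 cells that met this when Lcp1 was not counted.

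Smaller pairs named processes rather than cell types. Fos with Jun, immediate early transcription factors that tissue dissociation is known to induce, gave 0.599 (0.602 and 0.560). Fos stood at 3044 CPM with a range of 44.7 to 12322 CPM, and 17 of the 19 genes of the immediate early and dissociation list reached 50 CPM. Napsa with Sftpb, a protease and a surfactant protein that it helps process, gave 0.541. Npc2, a sterol carrier, with Scd1 gave 0.518, and Lcn2 with Chil1, both secreted by lung epithelium, 0.527. Wider lists were described over all their pairs. The median rho was 0.125 over AT2 markers, 0.240 over club markers, 0.208 over immediate early genes and 0.0993 over sterol synthesis genes, against 0.0327 over all pairs. The single pairs above were picked for a high rho, so the list medians are not compared with them.

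Esr1 also went with Scgb1a1 (0.487; 0.564 and 0.397). It was below 10 CPM in 81 BASCs and reached 950 CPM. CreER and DreER transgenes encode an estrogen receptor domain, and whether the Esr1 reads came from a transgene was not tested. In AT2 cells of Sftpc-TD, whose line has DreER alone, the highest Esr1 value was 0.825 CPM. In club cells of Scgb1a1-TD, whose line has CreER, the median was 107.4 CPM, and it was higher still in club cells of the tracer line. Other cell types of these CreER lines had low medians. They were 0.938 CPM in BASCs and 0 CPM in ciliated cells of Scgb1a1-TD, with highest cells at 277.5 and 908.1 CPM. The AT2 cells of the tracer line had a median of 1.025 CPM. These groups differ in cell type as well as in transgene, and the part of each was not tested.

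**Figure D5:**
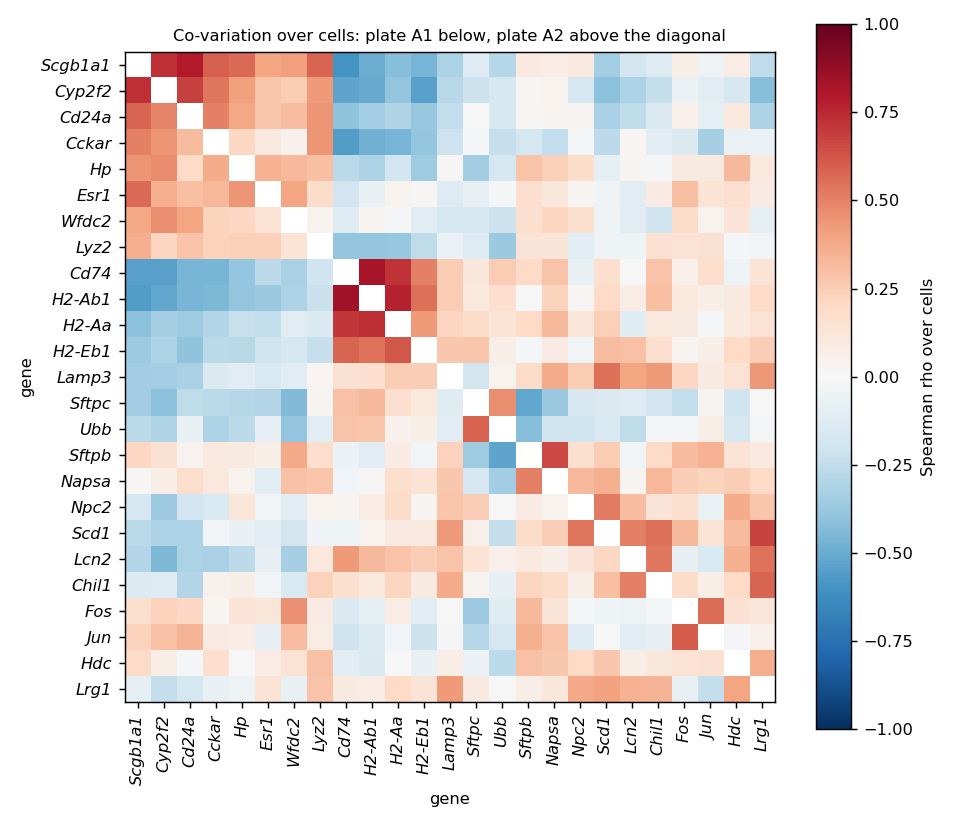
Spearman's rho over cells for the genes on the axes, with plate A1 (84 cells) below and plate A2 (49 cells) above the diagonal. The blocks of Scgb1a1, Cyp2f2, Cd24a and Cckar and of Cd74, H2-Ab1, H2-Aa and H2-Eb1 are positive within and negative between each other in both plates.

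The BASCs of both plates were also set side by side, each plate pooled as 1 sample. Of 3072 genes with 50 CPM or more in the higher plate, 499 were 2-fold or more apart, a background share of 16.2%, and of these 29.7% were higher on plate A2 and 70.3% on plate A1. The largest ratios came from genes with a median at or near 0 in single cells. Arntl, a clock transcription factor, stood at 50.4 CPM on plate A1 and 3.48 CPM on plate A2, a log2 ratio of plate A2 to plate A1 of -3.52. Slc26a4, an anion exchanger, stood at 7.66 and 76.7 CPM, a log2 ratio of 3.17, and F3, which encodes tissue factor, at 22.3 and 177.8 CPM, a log2 ratio of 2.94. Single cells weighed on these ratios: 1 cell held 51.43% of the Arntl reads, 45.42% of the Slc26a4 reads and 49.71% of the F3 reads of plate A2. Without the cell with most reads of the gene on each plate, the log2 ratios were -3.74 for Arntl, 3.56 for Slc26a4 and 2.44 for F3, and F3 stood at 96.35 CPM on plate A2. The same step took Kifap3 from 2.66 to 0.545 and turned Ppp2r2b from 2.32 to -2.745. Among leading genes, Sftpc stood at 163405 CPM on plate A1 and 192820 CPM on plate A2, and Scgb1a1 at 15055 and 10715 CPM, neither 2-fold apart. No label says whether the plates held cells of different animals, so plate and animal cannot be told apart.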

How the data were processed

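Lungs were digested, single epithelial cells were sorted into wells, and amplified cDNA was made into Nextera XT libraries, per the labels' protocols. HISAT2, HTSeq and the build GRCm38 are named in the submitters' processing notes, with no version or strand setting. The deposited table gives, for each cell, the authors' raw count of reads per gene, without molecular identifiers. Symbols came from GENCODE M21 and matched 53274 of 53379 identifiers, and promoters came from RefSeq (GRCm38.p6). CPM was taken over all gene-assigned reads, pooled over cells or per cell, and TPM from exon union length. Poisson intervals (CPM) and Clopper-Pearson intervals (shares) are at 95%. Spread and rho used cells with 100000 reads or more. The CV of few cells has an upper bound, so the spread rule reached fewer genes of low level. No doublet caller was run. Steps were tested on simulated data, where genes with no added spread passed the spread limit at a like rate, so its count is a description. Genes named were the 20 with most reads, up to 4 members per list, the 15 with largest spread, up to 5 partners per end of each marker, leading pairs and 8 genes per plate direction, plus list members added after their values were seen (Lamp3, Abca3, Napsa, Pgc, Scgb3a1, Scgb3a2, Muc5b, Reg3g, Por, Gstm1, Ciita, Foxj1, Hopx, Pdpn, Krt5, Calca, Siglecf, Pdgfrb, Trbc2, Mcm2, Mki67, Top2a, Ccnb1, Ube2c, Notch1, Notch3, Fgfr1, H2-T23, Krt7). Some genes that met the rule are not reported here. Members and lists were chosen with earlier results of these data known. Analysis used Python 3.11.15 with numpy 2.4.6, pandas 2.3.3 and scipy 1.17.1.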

Additional observations from a re-analysis of the deposited data

How the results depend on the processing

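Cells of 1 line stand for 1 sample and animals are not named, so no result has a replicate check, and depth and cell number limit the precision. Of 60 alternatives tried on the 7 summary results, 43 stayed within 1.5-fold (0.1 for rho). The rho of Sftpc with Scgb1a1 stayed negative in all of its own. Not all 43 could move: 7 of them required 100000 reads and 2000 genes, and every BASC had 3506 genes or more. Results that already used cells with 100000 reads therefore kept the same cells. Another 7 were an alternative chosen after seeing the data. For the alternatives that moved, the cause was not tested. The median of 3138 genes per cell was 4993 without thinning. The share of all genes with a read in 90% of cells, 0.663%, was 1.645% without thinning and 0.3129% at 5 reads. The share of genes above the spread trend, 1.41% in both plates, was 4.517% within plate A2 and 4.807% within plate A1 alone, 0.8586% with no CPM limit, 3.80% at 200 CPM and 0.9117% by the standard deviation of log2 CPM. The 15 pairs were 907 within plate A2 and 76 within plate A1 alone, 44 without cells at 50 CPM of pan-leukocyte genes and 45 with no CPM limit. The Spearman rho of Sftpc with Scgb1a1, -0.287, was -0.1284 without plate A1, -0.4224 by Pearson's r and -0.1208 on a total without mitochondrial and the 10 leading genes. The 499 genes apart between plates were 1000 without the pan-leukocyte cells and 4023 at 5 CPM. Leaving out the 7 cells at 50 CPM of the pan-leukocyte list without Lcp1, an alternative chosen after seeing the data, moved none of the 7 results past these limits. Leaving out the cell with most reads of a gene on each plate was also chosen after seeing the data. No paired analysis was possible because the results come from no test and labels give well positions, not replicate numbers.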

Other observations

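Genes of the sex chromosomes differed between Sftpc-TD and the other lines. The Y-linked genes Ddx3y, Eif2s3y, Kdm5d and Uty together had a read in all BASCs of BASCs-Tracer but 2 and were at 10 CPM or more in 69 of 85 cells on plate A1 and 33 of 53 on plate A2, while Xist, the RNA of the inactive X chromosome, had a read in 22 and 10 CPM or more in 8. In 3 cells both were at 10 CPM or more. In BASCs of Sftpc-TD no cell of 11 had a Y-linked read and 8 had 10 CPM or more of Xist, so sex and line cannot be told apart where these lines are set side by side.

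Keratin and claudin genes of simple epithelium ranged in level. Krt8 and Krt18, the keratin pair of simple epithelium, stood at 595 and 640 CPM, with cells from 3.42 to 4193 and from 4.82 to 5120 CPM. Cldn18, a claudin of the alveolar barrier, stood at 957 CPM and Cldn3 at 532 CPM. Krt7 and Krt19 were lower, with medians of 5.86 and 10.7 CPM and a read in 56.4% and 59.4% of BASCs at 100000 reads, and Cldn4 had a read in 46.6% of cells with 100000 reads or more. Krt18 was among the 34 genes above the spread trend in both plates and Krt8 was not; whether they differ in spread was not tested.

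Ly6a, which encodes Sca-1, a surface protein used to sort lung progenitors, stood at 151.3 CPM. It was below 10 CPM in 70 BASCs, at 100 to 1000 CPM in 55 and above that in 1. Its median was 4.085 CPM on plate A1 and 227.9 CPM on plate A2. Reads of the near-identical Ly6 genes may be shared between copies.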
